A study of Mus musculus with 4 samples.

Results

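Egr1, Egr2, Egr3, Nr4a1, Nr4a3, Ier2, Ier3 and Ier5 are early genes whose transcription follows the strength of T cell receptor (TCR) signalling in thymocytes. They were taken by symbol from a table of fragment counts per gene, and all 8 of 8 were found among its 24984 genes. The table comes from TTchem-seq, in which RNA made during a pulse of 4-thiouridine (4sU) is labelled, fragmented, purified and sequenced, and the fragments over a gene, with its introns, measure its transcriptional output. The cells were DP thymocytes, the stage of T cell development that carries both CD4 and CD8, and the study asked how their transcription differs when Tox4, an HMG box protein of the TOX family, is lost.

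WT mice were Tox4;F/F and cKO mice were Tox4;F/F;Lck+, so that both groups carried the floxed Tox4 alleles and Cre was present in the cKO mice alone. In both groups loxP sites flanked exons 4 to 6 of Tox4, and mice were 6 to 8 weeks old. As the paper states, Cre is driven from the DN3 stage on by the proximal promoter of Lck. Its methods give the floxed line a C57BL/6 background and describe littermates matched for gender. WT mice carried no Cre, so Cre expression and loss of Tox4 cannot be told apart. No 4sU dose or pulse length is given in the labels, and cells spent 0.5 h in culture before labelling in all samples. There were 2 libraries per genotype, with the smallest and the largest number of fragments being 38429786 and 48690591.

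Immediate early genes are transcribed within minutes of a stimulus by factors that are already in the cell, and their transcripts are short-lived. In thymocytes, TCR engagement activates the ERK and calcium pathways, which act through SRF with its ternary complex factors and through CREB and MEF2 proteins. The EGR genes encode zinc finger transcription factors that contribute to positive selection, the NR4A genes encode orphan nuclear receptors that are used as reporters of TCR signal and take part in negative selection, while Ier2 and Ier5 encode nuclear proteins of one family and Ier3 encodes an unrelated small protein.

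To show the sequence in front of these genes, the 250 bases upstream of the transcription start are given for 5 of 8 members. These are Egr2, Nr4a1, Nr4a3, Ier3 and Ier5, with sequences from the RefSeq promoter table of GRCm38.p6. The promoters of Egr1, Egr3 and Ier2 were not searched for sites, so the matches below say nothing about them. The printed bases read 5′ to 3′ towards the gene, and the last base lies next to the start position in the fragment table. Capitals mark matches on either strand to the CArG box, bound by SRF, to the CREB half-site TGACG, to the EGR site GCGNGGGCG, where N is any base, and to the TATA element TATAA.
Egr2 promoter, chr10:67537619-67537868, plus strand: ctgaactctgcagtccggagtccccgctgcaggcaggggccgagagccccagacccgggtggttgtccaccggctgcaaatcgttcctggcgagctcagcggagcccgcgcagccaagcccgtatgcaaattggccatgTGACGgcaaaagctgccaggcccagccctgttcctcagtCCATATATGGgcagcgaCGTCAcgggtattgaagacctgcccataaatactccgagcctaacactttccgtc
Nr4a1 promoter, chr15:101266596-101266845, plus strand: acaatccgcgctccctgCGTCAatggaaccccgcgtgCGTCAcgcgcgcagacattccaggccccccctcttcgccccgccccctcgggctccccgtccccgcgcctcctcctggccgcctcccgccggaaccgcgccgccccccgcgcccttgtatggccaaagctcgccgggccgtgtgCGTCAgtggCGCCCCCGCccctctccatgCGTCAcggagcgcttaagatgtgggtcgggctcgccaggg
Nr4a3 promoter, chr4:48045055-48045304, plus strand: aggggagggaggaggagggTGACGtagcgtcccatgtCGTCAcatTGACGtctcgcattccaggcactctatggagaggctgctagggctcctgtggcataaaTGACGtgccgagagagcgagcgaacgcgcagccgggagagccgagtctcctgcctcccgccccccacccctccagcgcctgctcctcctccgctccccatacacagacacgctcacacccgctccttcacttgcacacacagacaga
Ier3 promoter, chr17:35821463-35821712, plus strand: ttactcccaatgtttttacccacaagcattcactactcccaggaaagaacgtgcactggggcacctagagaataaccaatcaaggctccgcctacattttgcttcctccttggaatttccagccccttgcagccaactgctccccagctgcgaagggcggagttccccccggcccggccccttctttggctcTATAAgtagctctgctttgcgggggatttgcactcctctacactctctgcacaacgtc
Ier5 promoter, chr1:155099637-155099886, minus strand: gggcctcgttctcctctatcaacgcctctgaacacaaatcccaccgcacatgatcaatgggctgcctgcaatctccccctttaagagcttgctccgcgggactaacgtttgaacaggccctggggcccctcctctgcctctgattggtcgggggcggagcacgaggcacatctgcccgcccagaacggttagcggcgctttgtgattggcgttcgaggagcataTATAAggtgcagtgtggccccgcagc

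A CArG box was found in Egr2 alone among the 5 promoters, from 72 to 63 bases before the start, and 1.4% of all 27025 RefSeq promoters hold one in the same 250 bases. The half-site TGACG occurred at 4 positions in Nr4a1, at 4 in Nr4a3 and at 2 in Egr2, and at none in Ier3 and Ier5, while 17.8% of all promoters hold at least 1. The full CREB site TGACGTCA, which contains the half-site, was found in 0 of the 5 promoters and in 1.61% of all promoters. The EGR site was found in Nr4a1, from 60 to 52 bases before the start, and in 4.63% of all promoters. The AP-1 site TGANTCA was found in 0 of the 5 and in 6.83% of all. TATAA occurred 58 to 54 bases before the start of Ier3 and 26 to 22 bases before that of Ier5, and 23.5% of all promoters hold it on either strand. These are matches of letters, and binding was not measured here.

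The libraries carried the transcripts of DP thymocytes. All 12 DP markers, among them Cd4, Rag1 and Satb1, had a mean of at least 42.9 counts per 1000000 fragments (CPM), which is the level of Rag2. The 7 markers of mature single positive cells were also present, up to a mean of 223 CPM for Ccr7, and how DP cells were separated from them for TTchem-seq is not stated in the sources used here. All 6 erythroid and all 5 thymic epithelial markers had a mean below 1 CPM. Tox4, whose deleted exons are part of its count, was at 74.0 and 70.3 CPM in WT and at 59.3 and 57.2 CPM in cKO libraries. Transcripts specific to a sex set WT replicate 1 apart, since Xist reached 172 CPM there and did not exceed 2.36 CPM elsewhere, and the change of each of the 8 genes is therefore also given without that library.

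Of the 8 early genes, output was lower in cKO DP cells for Egr1 and Ier5 and higher for Nr4a3 at the criteria of the study, namely an adjusted p-value under 0.05 with DESeq2, at least a 1.2-fold change, and 1 CPM or more on average. The other 5 did not pass, and of these Ier3, Ier2, Egr2 and Egr3 had both cKO libraries below both WT libraries, whereas those of Nr4a1 overlapped. With 1 of the 5 members that received an adjusted p-value called increased and 2 called decreased, the shares over all 10624 genes with an adjusted p-value and 1 CPM or more on average were 2.34% and 1.71%. Both cKO libraries lay below both WT libraries for 6 of 8 members and above for 1 of 8, beside 23.6% and 24.6% of the 12610 genes with 0.5 CPM or more on average. The median log2 fold change of cKO over WT was -0.45 over the 6 members with 1 CPM or more on average and 0.00 over all 11625 such genes. In these bulk samples, fewer cells of a type and less RNA per cell cannot be told apart.

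The calls were not made by every test. With the quasi-likelihood test of edgeR, after its filter on low counts, the count was 0 of the 8 members. The share over the 11625 genes with 1 CPM or more on average was 0.499%. The limma voom test called 0 of 8 as well. P-values measure the spread between 2 libraries per genotype only.

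**Figure D1:**
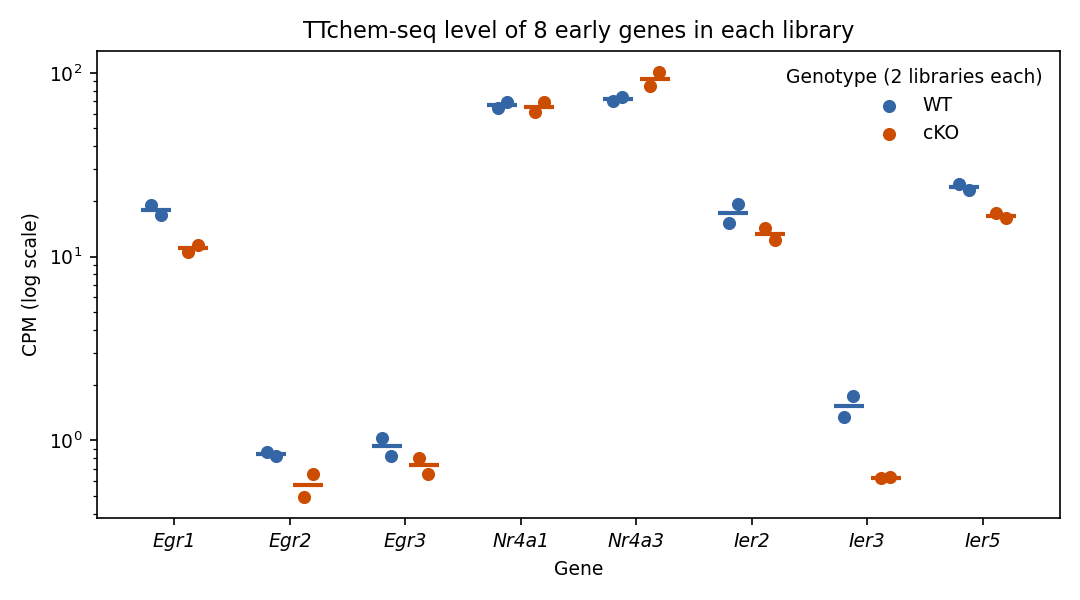
TTchem-seq level of the 8 early genes, as CPM on a log axis, in each of 2 WT (blue) and 2 cKO (orange) libraries; the bar is the mean. The cKO points lie below the WT points for 6 genes, above them for Nr4a3, and among them for Nr4a1.

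Egr1, the EGR factor most used as a mark of ERK signalling, made up between 89.1% and 91.2% of the fragments counted over the 3 EGR members in each library. It lies on chromosome 18 of GRCm38, 34861207 to 34864956, plus strand, with 2 exons. Its output was 19.1 and 16.9 CPM in the WT libraries and 10.6 and 11.5 CPM in the cKO libraries, from 815, 824, 409 and 458 fragments. Both cKO libraries were low and the groups did not overlap. WT libraries averaged 18.0 ± 1.55 CPM and cKO libraries 11.1 ± 0.620 CPM (SD, n = 2 each), and Egr1 fell by 38.6% (log2 fold change -0.70, SE 0.178, adjusted p-value 0.00406 with DESeq2). With edgeR the adjusted p-value was 0.0932. The WT libraries differed from each other by a log2 ratio of -0.17 and the cKO libraries by 0.11, less than the difference between genotypes. A fit that left out WT replicate 1 gave -0.62 (adjusted p-value 0.410), and leaving out each library in turn gave values between -0.78 and -0.62. A single library in an arm does not allow its spread to be seen, and none of the 3 calls was kept when any 1 of the 4 libraries was left out.

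Egr2 and Egr3, the EGR factors that act with Egr1 in selection and in NKT cell development, were transcribed near the limit of these libraries. Egr2 (chromosome 10, 67537869 to 67542188, plus strand, 2 exons) was at 0.868 and 0.822 CPM in WT and at 0.494 and 0.654 CPM in cKO libraries, from 37, 40, 19 and 26 fragments. Egr3 (chromosome 14, 70077445 to 70082613, plus strand, 3 exons) was at 1.03 and 0.822 CPM in WT and at 0.807 and 0.654 CPM in cKO libraries, from 44, 40, 31 and 26 fragments. For both genes the cKO libraries were the lower ones, and for Egr3 WT replicate 2 and cKO replicate 1 nearly met. The 95% intervals of single libraries, exact Poisson intervals that cover counting error only, overlapped between genotypes: for Egr2 they ran from 0.587 to 1.12 CPM in WT replicate 2 and from 0.427 to 0.958 CPM in cKO replicate 2. The log2 fold changes were -0.56 (SE 0.726) for Egr2 and -0.35 (SE 0.673) for Egr3, DESeq2 gave no adjusted p-value at these low counts, and the edgeR adjusted p-values were 0.647 and 0.771. Without WT replicate 1 the values were -0.53 for Egr2 and -0.18 for Egr3. A difference was not detectable at this depth. Egr4, the remaining EGR gene, was close to absent, at most at 0.0520 CPM in any library.

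Of the 2 NR4A members, Nr4a3 was called increased and Nr4a1 was not called, and differences between genes were not tested. Nr4a3, the orphan nuclear receptor also called NOR-1, lies on chromosome 4, 48045305 to 48086446, plus strand, and with 8 exons over 41142 bp it is the longest of the 8 genes. Its output was 70.0 and 73.7 CPM in the WT libraries and 84.9 and 101 CPM in the cKO libraries, from 2983, 3588.5, 3261 and 4018 fragments. Both cKO libraries were high, cKO replicate 2 more so, and the groups did not overlap. WT libraries averaged 71.8 ± 2.63 CPM and cKO libraries 93.0 ± 11.5 CPM (SD, n = 2 each), and Nr4a3 rose 1.29-fold (log2 fold change 0.37, SE 0.110, adjusted p-value 0.0230 with DESeq2). The cKO libraries differed from each other by a log2 ratio of 0.25, and a fit that left out cKO replicate 2 gave a log2 fold change of 0.23 (adjusted p-value 0.929). Leaving out WT replicate 1 gave 0.32 (adjusted p-value 0.464). With edgeR on all 4 libraries the adjusted p-value was 0.183.

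Nr4a1, which encodes Nur77, the nuclear receptor whose reporter mice are widely used to read TCR signal strength, lies on chromosome 15, 101266846 to 101274794, plus strand, with 7 exons. It was at 64.0 and 69.8 CPM in WT and at 61.5 and 69.7 CPM in cKO libraries, from 2730, 3400, 2362 and 2772 fragments. The groups overlapped, and each genotype had a lower and a higher library. The log2 fold change was -0.03 (SE 0.110, adjusted p-value 0.952 with DESeq2), with a 95% interval from -0.25 to 0.18. Without WT replicate 1 the value was -0.10. Its sign turned without WT replicate 2 (0.04), without cKO replicate 1 (0.06) and with a GC trend removed (0.03). Set against Nr4a1 in the same library, Nr4a3 had 1.09 and 1.06 times the CPM in the WT libraries and 1.38 and 1.45 times in the cKO libraries. That ratio was higher in both cKO libraries, and it does not depend on how libraries were scaled. Nr4a2, the remaining NR4A gene, was at 6.17 and 6.80 CPM in WT and 7.55 and 7.39 CPM in cKO libraries and was not called (log2 fold change 0.20, SE 0.240, adjusted p-value 0.812 with DESeq2).

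**Figure D2:**
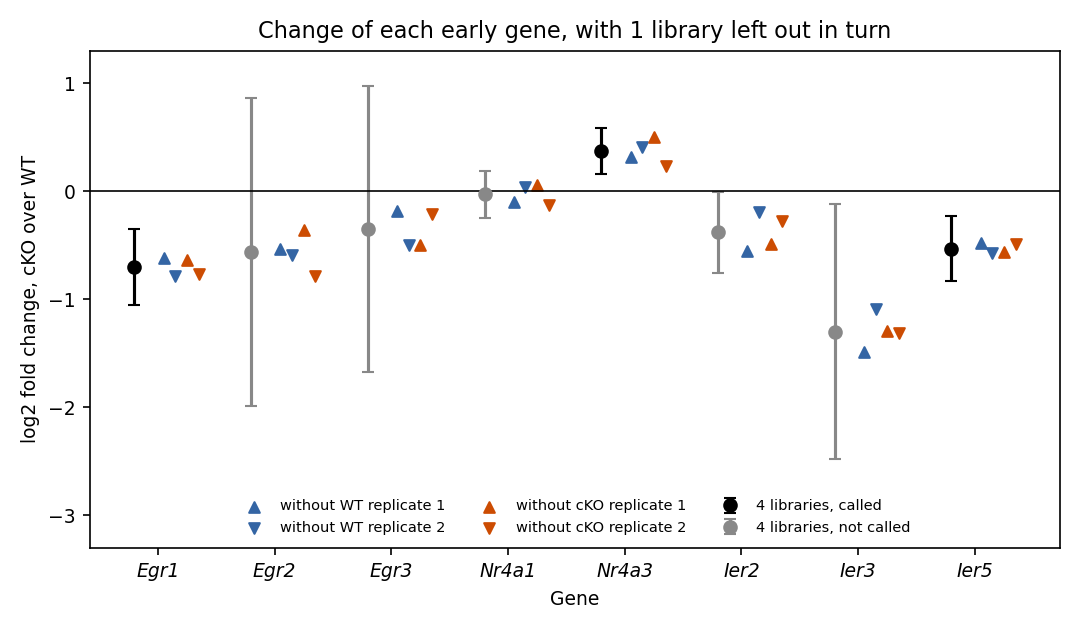
Log2 fold change of cKO over WT for each early gene with its 95% interval (circles, black where called) and the same value with 1 library left out (triangles; blue for a WT and orange for a cKO library). Egr1 and Ier5 keep values below 0 and Nr4a3 above 0 in all 4 such fits, as follows from groups that do not overlap, and Nr4a1 crosses 0.

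Ier5, whose product acts on heat shock factor HSF1 with the phosphatase PP2A, lies on chromosome 1, 155096367 to 155099636, minus strand, in a single exon. Its output was 24.8 and 23.2 CPM in the WT libraries and 17.2 and 16.2 CPM in the cKO libraries, from 1058, 1128, 661 and 644 fragments. Both cKO libraries were low, close to each other, and apart from the WT libraries. WT libraries averaged 24.0 ± 1.17 CPM and cKO libraries 16.7 ± 0.709 CPM (SD, n = 2 each), and Ier5 fell by 30.5% (log2 fold change -0.53, SE 0.151, adjusted p-value 0.0168 with DESeq2). The edgeR adjusted p-value was 0.120. Leaving out each library in turn gave log2 fold changes between -0.57 and -0.48, and without WT replicate 1 the value was -0.48 (adjusted p-value 0.521). The related gene Ier5l varied between the WT libraries, at 0.235 and 1.54 CPM, and was at 1.38 and 1.26 CPM in cKO.

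Ier3, also known as IEX-1, a regulator of apoptosis and of ERK signalling, had the lowest cKO over WT ratio of the 8 genes and few fragments. It lies on chromosome 17, 35821713 to 35822911, plus strand, with 2 exons. It was at 1.34 and 1.75 CPM in WT and at 0.625 and 0.629 CPM in cKO libraries, from 57, 85, 24 and 25 fragments. Both cKO libraries were low, and their 95% intervals, which reached up to 0.929 CPM, lay below those of the WT libraries, which began at 1.01 CPM. The log2 fold change was -1.30 (SE 0.601), DESeq2 gave no adjusted p-value, and that of edgeR was 0.239. The unadjusted DESeq2 p-value was 0.0302. With the filter of DESeq2 on low counts turned off, its adjusted p-value was 0.4695, which did not pass. Without WT replicate 1 the value was -1.49.

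Ier2, a nuclear protein of the early response to growth factors, lies on chromosome 8, 84661331 to 84662852, minus strand, in a single exon. It was at 15.2 and 19.4 CPM in WT and at 14.3 and 12.2 CPM in cKO libraries, from 647, 943, 551 and 487 fragments. The cKO libraries were the lower ones, but WT replicate 1 and cKO replicate 1 were close, and the WT libraries differed from each other by a log2 ratio of 0.34. The log2 fold change was -0.38 (SE 0.190, adjusted p-value 0.329 with DESeq2), about as large as the difference within WT. Without WT replicate 2 it was -0.19 and without WT replicate 1 it was -0.55.

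Summed by family, the EGR members were at 21.0 and 18.6 CPM in WT and at 11.9 and 12.8 CPM in cKO libraries. The NR4A members summed to 134 and 144 CPM in WT and to 146 and 171 CPM in cKO libraries. The IER members summed to 41.3 and 44.3 CPM in WT and to 32.2 and 29.1 CPM in cKO libraries. The sums of the EGR and of the IER members were thus lower in both cKO libraries and that of the NR4A members higher. Over all 8 genes the sums overlapped, at 196 and 206 CPM in WT and at 190 and 213 CPM in cKO libraries, since Nr4a1 and Nr4a3 hold most of the fragments.

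Levels of different genes were compared as CPM per kb of the counted gene length. Ier2 had the highest mean level over the 4 libraries, 10.04 CPM per kb, followed by Nr4a1 at 8.34, Ier5 at 6.22, Egr1 at 3.88, Nr4a3 at 2.003, Ier3 at 0.904, Egr2 at 0.164 and Egr3 at 0.160 CPM per kb. The ranges over the 4 libraries overlapped between Ier2 and Nr4a1 and between Egr2 and Egr3, so these neighbours were not separated by their spread. Those of Ier5 and Egr1 overlapped across genotypes, yet Ier5 was above Egr1 in 4 of 4 libraries. The order was identical in both WT libraries, whereas in each cKO library 6 of 8 genes kept their place. Without division by length, 3 of 8 genes kept their place. In the order of all 11625 genes with 1 CPM or more on average, Ier2 stood above 94.5%, Nr4a1 above 92.8%, Ier5 above 89.3% and Egr1 above 79.8% by CPM per kb.

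**Figure D3:**
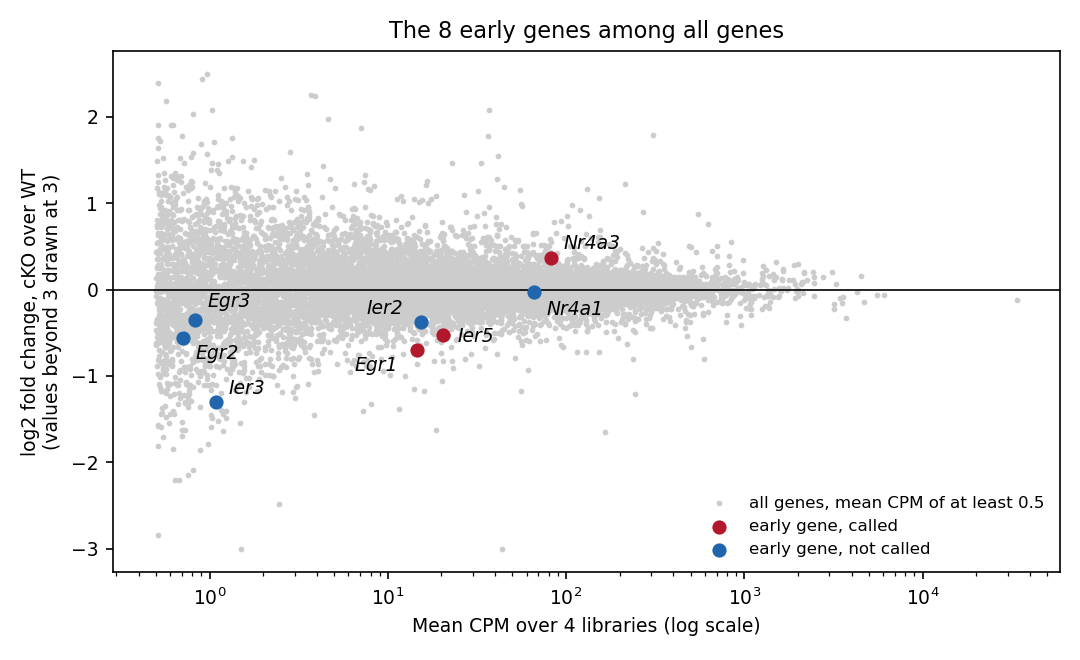
Log2 fold change of cKO over WT against mean CPM (log axis) for all genes with 0.5 CPM or more on average (grey) and the 8 early genes (red where called, blue where not). Egr2, Egr3 and Ier3 lie where fold changes of all genes scatter widely, and Nr4a1 and Nr4a3 have the highest CPM, not divided by length, of the 8, with Nr4a1 close to 0 and Nr4a3 above it.

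The members share a compact structure apart from Nr4a3. The other 7 genes were between 1199 and 7949 bp long, beside a median of 22650 bp over the 11625 genes, and the GC content over the 8 genes ran from 46.0% in Nr4a3 to 60.9% in Ier2, beside a median of 45.8%. The one increased member was therefore also the longest and the poorest in GC. With the trend of each library on gene length or on GC content removed, fits added after the data had been seen, Egr1, Nr4a3 and Ier5 were still called in the same directions.

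The nearest gene with 1 CPM or more on average on each side was also examined, 16 genes in all. None of the neighbours of Egr1, Nr4a3 and Ier5 was called. Cacna1e, 370.4 kb downstream of Ier5 on the same strand, was at 384 and 118 CPM in WT and at 87.5 and 72.5 CPM in cKO libraries, low in both cKO libraries, with a wide gap between the WT libraries (log2 fold change -1.65, SE 0.773, adjusted p-value 0.284 with DESeq2). Flot1, 445 bp downstream of Ier3 on the same strand, had a log2 fold change of -0.04 (SE 0.181). Stx17, 38.5 kb downstream of Nr4a3, was at 11.4 and 11.9 CPM in WT and at 16.3 and 15.1 CPM in cKO libraries, and was not called (log2 fold change 0.43, SE 0.178, adjusted p-value 0.187 with DESeq2). Cacna1a, a calcium channel gene 21.1 kb downstream of Ier2 on the other strand, was the 1 neighbour called, increased with a log2 fold change of 1.24 (SE 0.2385, adjusted p-value 3e-05 with DESeq2).

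Genes of the pathway in front of the early genes were read from the same fit. Of 14 upstream factors, comprising SRF, the ternary complex factors, the MRTF coactivators, CREB and MEF2 proteins and partners, 0 were called in either direction, beside 2.34% increased and 1.71% decreased over all genes, and their median log2 fold change was -0.05. With shares this low over all genes, a count of 0 among 14 does not set the list apart. Both cKO libraries lay below both WT libraries for 5 of the 14 and above for 1, beside 23.6% and 24.6% of all genes with 0.5 CPM or more on average. Srf itself was at 30.4 and 37.0 CPM in WT and 33.4 and 29.9 CPM in cKO libraries, and the groups overlapped. Mef2d, a MEF2 factor of thymocytes, had a DESeq2 adjusted p-value of 0.0326 and a log2 fold change of -0.21, which is under the 1.2-fold criterion. The corepressors Nab1 and Nab2, which bind EGR proteins, and Id3, an EGR target in selection, were not called, with log2 fold changes of 0.08, -0.10 and 0.21.

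Other immediate early genes moved in both directions. Of 35 such genes, 33 had 1 CPM or more on average, 3 were called increased and 4 decreased, and the median log2 fold change was -0.08, beside the 2.34% increased and 1.71% decreased over all genes. None of these 7 was called by edgeR, whose adjusted p-values for them lay between 0.129 and 0.270. With WT replicate 1 left out, 0 were called increased and 3 decreased, namely Jun, Btg2 and Jund. Increased with all 4 libraries were Myc, the growth regulator (0.81, SE 0.2225), Fosl2, an AP-1 subunit (0.49, SE 0.111), and Sik1, a salt-inducible kinase that is itself a CREB target (0.33, SE 0.1055). Decreased were Jun, the AP-1 subunit (-0.57, SE 0.152), Nfkbia, the NF-κB inhibitor (-0.38, SE 0.107), Zfp36, which destabilises AU-rich mRNAs (-0.33, SE 0.101), and Btg2, an antiproliferative factor (-0.31, SE 0.09175). Jun was at 41.1 and 53.4 CPM in WT and at 35.2 and 28.6 CPM in cKO libraries, low in both cKO libraries. Fos, the classical partner of Jun, was at 28.3 and 44.1 CPM in WT and at 39.0 and 38.2 CPM in cKO libraries, where the groups overlapped (0.09, SE 0.173). Junb was not called (-0.27, SE 0.123, adjusted p-value 0.257 with DESeq2). Both cKO libraries lay below both WT libraries for 14 of the 33 genes and above for 4 of them, beside 23.6% and 24.6% of all genes with 0.5 CPM or more on average.

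Genes that TCR signals induce during selection gave no shared direction. Of 22, 3 were called increased and 1 decreased, beside 2.34% and 1.71% over all genes, with a median log2 fold change of 0.08. Ikzf2, which encodes Helios, was increased (0.87, SE 0.0736), as were Tox, the TOX family member needed for CD4 lineage cells (0.39, SE 0.0814), and the repressor Bcl6 (0.33, SE 0.102). Ccr7, the chemokine receptor of maturing thymocytes, was decreased (-0.34, SE 0.0910). Ikzf2 was the one of these genes that edgeR also called, with an adjusted p-value of 0.00769. With WT replicate 1 left out, Ikzf2 and Tox were called increased and 0 genes decreased. Cd69 and Cd5, surface proteins that report TCR signal, were not called: Cd69 was at 17.5 and 17.7 CPM in WT and at 16.03 and 10.97 CPM in cKO libraries, and Cd5 was at 58.1 and 51.8 CPM in WT and at 49.7 and 44.6 CPM in cKO libraries. For both genes the cKO libraries lay below the WT libraries, with DESeq2 adjusted p-values of 0.359 and 0.364.

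**Figure D4:**
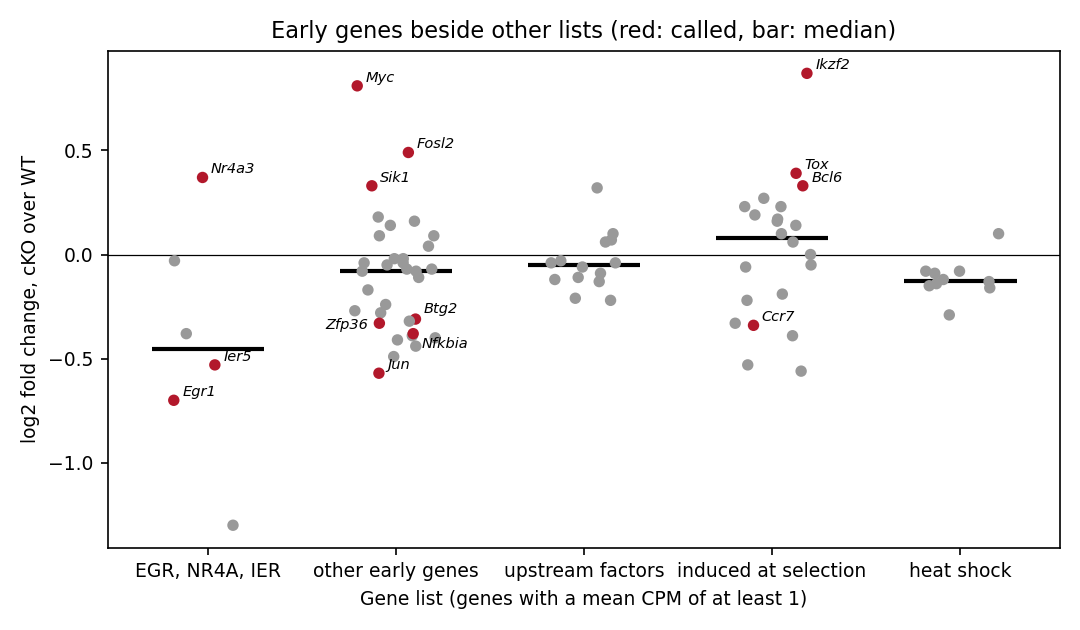
Log2 fold change of cKO over WT of single genes with 1 CPM or more on average in 5 lists (points, red where called; the bar is the median of the list). The medians run from -0.45 for the EGR, NR4A and IER genes to 0.08 for genes induced at selection, and called genes lie on both sides of 0 in the early gene lists.

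Markers of other cells and of handling were read beside these changes, because early genes also respond to cell isolation and are expressed in B and myeloid cells. Of 12 heat shock genes, 10 had 1 CPM or more on average and 0 were called, with 9 of the 10 lower in cKO, log2 fold changes between -0.29 and 0.10 and a median of -0.13. The 7 B cell markers summed to 23.2 and 29.5 CPM in WT and 15.98 and 18.95 CPM in cKO libraries, and Cd74, which antigen-presenting cells express, was called decreased (-0.75, SE 0.230). The defining B cell gene Ms4a1 was at most at 0.185 CPM in any library. The 7 myeloid markers overlapped in sum, from 10.6 to 13.7 CPM in WT and from 12.8 to 13.5 CPM in cKO. That sum was carried by Cd68, and of the 7 markers 2 lay below in both cKO libraries, 1 above and 4 overlapped. Lyz2 was at 1.34 and 1.21 CPM in WT and at 0.312 and 0.679 CPM in cKO libraries, Csf1r at 0.891 and 0.534 CPM in WT and at 0.156 and 0.327 CPM in cKO libraries, and both were low in cKO. Itgam was higher in cKO, at 1.06 and 1.07 CPM in WT and at 1.51 and 1.53 CPM in cKO libraries. The 5 dendritic cell markers summed to at most 5.07 CPM in any library, and 1 lay below, 2 above and 2 overlapped. Siglech was low in cKO, at 2.37 and 1.21 CPM in WT and at 0.416 and 0.729 CPM in cKO libraries, whereas Zbtb46 and Xcr1 were the higher ones. None of the myeloid and dendritic markers was called. Among DP markers Cd8a (-0.54), Tcf7 (-0.33) and Rag1 (-0.31) were called decreased, and among mature single positive markers Il7r (0.36) was called increased and Ccr7 decreased. Of these marker genes, Cd8a and Rag1 were still called with WT replicate 1 left out. The part of these cells and of handling in the changes of Egr1, Ier3, Ier5 and Nr4a3 was not tested.

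The genes whose pattern over the 4 libraries was most like the mean of the 6 members with 1 CPM or more on average were looked for among 6430 genes with 20 CPM or more on average outside all lists. Likeness was the Euclidean distance between log2 CPM values centred on the mean of the 4 libraries. Fbxl12, an F-box protein gene, was nearest (0.0298), followed by Uspl1 (0.0419), Spint2 (0.0449), Rsrp1 (0.0505) and Eef2, the translation elongation factor (0.0524), beside a median of 0.375 over all candidates. All 5 were called decreased, with log2 fold changes between -0.34 and -0.32. They were picked for this pattern on the same libraries, so these values are a description.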

How the data were processed

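TTchem-seq libraries of DP thymocytes from 2 WT and 2 cKO samples were grouped by their titles. Per the labels and methods, reads were filtered (fastp 0.13.1) and aligned to GRCm38 (mm10) with STAR 2.7.9a by the authors, and featureCounts 1.6.1 is listed among the submitters' tools. The deposited table held expected counts of fragments over whole transcript spans, introns included, and 8.61% of its values were fractional; how fractions were assigned and whether strand was used is not stated. The labels describe poly(A) capture and the methods rRNA depletion, which would weigh nascent RNA differently. Spike-in RNA was not used for scaling by the authors.

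Expected counts were rounded, and CPM were computed from the totals of the unrounded table (42626473 and 48690591 fragments in WT, 38429786 and 39760312 in cKO). No molecular identifiers were described, so counting intervals do not cover amplification. Whether replicates came from separate mice is not said in the labels. The main test was the DESeq2 1.42.0 Wald test over all genes, as in the study, with Benjamini-Hochberg adjustment, unshrunken log2 fold changes and independent filtering at 0.1. Alternatives used edgeR 4.0.16 and limma 3.58.1 voom (each after filterByExpr), other scaling, other filters, left-out libraries and a replicate block, in R 4.3.3; tables and plots used matplotlib 3.10.9, scipy 1.17.1, numpy 2.4.6 and pandas 2.3.3 under Python 3.11.15. Library ratios used a pseudocount of 0.5 CPM. Same-numbered WT and cKO libraries deviated from their group means with a correlation of -0.03 over genes. That value gave no sign of pairing by number, but it cannot exclude pairing. Rn45s, the ribosomal RNA precursor, was higher in replicate 2 of both genotypes, by a log2 ratio of 0.67 in WT and 0.73 in cKO. On simulated data with the means and library sizes of this comparison, over 24984 genes, 46.0% of genes changed 1.5-fold and 79.0% of genes changed 2-fold were called, with 19 false calls.

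The members and all lists were chosen with earlier results of these data known. Named were all members and their family relatives, called genes of each list (at most 6), Cd69, Cd5, Fos and Junb, Tox4, the nearest expressed neighbours of members and the 5 genes most like the members; further list and marker genes were named after their values were seen. Symbols Mkl1, Mkl2 and Cyr61 of the lists were read as Mrtfa, Mrtfb and Ccn1 through RefSeq synonyms. Values of some marker genes are not reported here.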

Additional observations from a re-analysis of the deposited data

How the results depend on the processing

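The directions of Egr1, Ier5 and Nr4a3 were kept under every alternative run, but their calls were not. The genotypes did not overlap for these genes, so a left-out library or a changed threshold could hardly turn a direction. Members called increased and decreased, 1 and 2 with DESeq2, became 0 and 0 with edgeR, with limma voom and with each library left out in turn (lowest and highest 0), and 0 and 1, Egr1, at a fold change of at least 1.5. With the replicate block they were 0 and 0 in DESeq2, where 121 and 72 genes were called in all. In edgeR with that block they were 0 and 0, and 19 and 9 genes were called. Whether libraries of the same number form pairs is not said in the labels. Over all alternatives, the adjusted p-value ran from 0.000282 to 0.410 for Egr1, from 0.002635 to 0.929 for Nr4a3 and from 0.00671 to 0.646 for Ier5. Over all genes, DESeq2 called 249 increased and 182 decreased, edgeR 48 and 10 and voom 50 and 11; leaving out a library gave 113 and 71 (WT replicate 1), 320 and 126 (WT replicate 2), 78 and 48 (cKO replicate 1) and 61 and 28 (cKO replicate 2). At a fold change of at least 1.5 they were 106 and 44. Chosen after seeing the data were edgeR without a filter on low counts (494 and 344, with the 3 members called), and removal of length and of GC trends, and the lists without WT replicate 1. The cause of these differences was not tested. The median log2 fold change of the members was -0.40 with the GC trend removed and between -0.53 and -0.38 with a library left out. Nr4a1 turned to 0.03 with the GC trend removed, and lay between -0.13 and 0.06 with a library left out, with values above 0 of 0.04 without WT replicate 2 and 0.06 without cKO replicate 1. Of 149 member values in all, 120 kept direction and side of the threshold, 26 lost the call and 3 turned sign. Egr2, Egr3, Nr4a1, Ier2 and Ier3 were called in no setting and so had no call to lose. Among the called members, 11 of 19 values were kept for Egr1, 10 of 19 for Nr4a3 and 10 of 19 for Ier5. With counts as low as 19 fragments, depth limits Egr2, Egr3 and Ier3. With a minimum of 5 CPM, 4 of the 5 genes most like the members were the same.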
